A study of Arabidopsis thaliana with 6 samples.

Results

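The 4 Arabidopsis thaliana genes for triacylglycerol acyltransferases, DGAT3 (AT1G48300), DGAT1 (AT2G19450), DGAT2 (AT3G51520) and PDAT1 (AT5G13640), were followed in small RNAs bound to ARGONAUTE1 (AGO1). They are 4 of the 32420 loci of the table. They were chosen by name and on their deposited genotype values in this same table, so their levels are given as a description and carry no test. Small RNAs were isolated with an AGO1 antibody from the aerial parts of plants 20 days old, which were moved to soil for 14 days after 6 days on medium and received no treatment. The genotypes were the triple mutant ein5 dcl4 dcl2 (alleles ein5-1, dcl4-2 and dcl2-1), the double mutant ein5 dcl4 (ein5-1 and dcl4-2) and the wild type Col-0, with 2 libraries of each, which the design text calls biological replicates. Both mutants lacked EIN5 and DCL4, and DCL2 was the gene by which they differed. EIN5, also named XRN4, is the cytoplasmic exonuclease that degrades uncapped mRNA from its 5′ end, and DCL4 and DCL2 are Dicer-like enzymes that cut small interfering RNAs from double-stranded RNA. The values count small RNAs assigned to a locus, and say nothing of its mRNA or protein. All 6 libraries were immunoprecipitates, so loading onto AGO1 and abundance of a small RNA cannot be told apart, nor can fewer producing cells and less small RNA per cell. The aerial tissue could not be checked against marker genes, since small RNA reads do not report their mRNA.

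Triacylglycerol is the storage oil of seeds and a minor, transient store of fatty acids in leaves. The last step of its synthesis adds the final acyl chain to diacylglycerol. DGAT1, DGAT2 and DGAT3 take that chain from acyl-CoA, whereas PDAT1 takes it from a membrane phospholipid. DGAT1 and PDAT1 are the enzymes known to carry seed oil synthesis in Arabidopsis, and loss of both is lethal to pollen or embryos. DGAT1, DGAT2 and PDAT1 are membrane proteins of unrelated families, and DGAT3 is a soluble enzyme that carries an iron-sulfur cluster. In plants that cannot clear aberrant mRNA, endogenous genes are known to become templates for secondary siRNAs, and those made by DCL2 are mostly 22 nucleotides long. Lengths of the counted small RNAs are not stated in the labels or headers.

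The table held 1 value per locus and genotype, from which the whole reads of both libraries were recovered. They are called a and b here, because the table does not say which replicate each one is. Reads in the table numbered 1102996 and 843408 in ein5 dcl4 dcl2, 1292727 and 836879 in ein5 dcl4, and 1217707 and 957043 in Col-0. One read was worth 1.71 and 1.90 deposited units in ein5 dcl4 dcl2, 1.92 and 2.79 in ein5 dcl4, and 0.185 and 0.257 in Col-0. The same number of reads therefore gave a higher value in either mutant than in Col-0, and both reads and units are given for this reason. A count of 0 allows up to 3 reads, which were worth 5.12 and 5.70 units in ein5 dcl4 dcl2, 5.75 and 8.37 in ein5 dcl4, and 0.555 and 0.770 in Col-0. Such limits and all intervals cover counting error only. Libraries of 1 genotype differed beyond sampling noise. The EIN5 locus itself held no read in ein5 dcl4 dcl2, 0 and 1 in ein5 dcl4, and 26 and 5 in Col-0. The DCL4 locus held 4 and 2 reads in ein5 dcl4 dcl2, 4 and 8 in ein5 dcl4, and 0 and 4 in Col-0. DCL2 held no read in ein5 dcl4 dcl2, 0 and 2 in ein5 dcl4, and 1 and 0 in Col-0, too few at that locus to check the label.

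Whether small RNAs of DGAT3 could be counted at another gene depends on what sequence it shares, and the stretches below are shown for that reason. On RefSeq's TAIR10.1 assembly, DGAT3 is a gene of 2 exons on the plus strand of chromosome 1, at chr1:17847042-17848338, with 1207 exonic bases of which 1083 are coding. No stretch of 22 exonic bases of DGAT3 was found elsewhere in the genome on either strand. Among its 1167 exonic stretches of 21 bases, 3 were found elsewhere, or 0.257%. All of these lie within 35 coding bases at chr1:17847672-17847706, plus strand, and the capitals mark the 21 bases found at the loci named.
Match to AT2G05960 and AT3G42553: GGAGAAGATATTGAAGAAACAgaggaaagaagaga
Match to AT3G51670: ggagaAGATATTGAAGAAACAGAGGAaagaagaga
Match to AT5G02430: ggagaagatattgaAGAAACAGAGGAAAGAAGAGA
The loci AT2G05960 and AT3G42553 are pseudogenes. AT2G05960 held 3 and 4 reads in ein5 dcl4 dcl2, 1 and 0 in ein5 dcl4, and 24 and 18 in Col-0, and AT3G42553 held 1 and 4, then 1 and 0, then 27 and 19. AT3G51670 held none in ein5 dcl4 dcl2, 3 and 2 in ein5 dcl4, and 1 and 1 in Col-0, and AT5G02430 held no read. In ein5 dcl4, where DGAT3 was high, none of these loci had more than 3 reads in a library. In Col-0 both pseudogenes had more reads than DGAT3, and whether any of the few DGAT3 reads there came from the shared 21 bases was not tested.

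The coding sequence of DGAT3 shared no stretch of small RNA length with the other triacylglycerol acyltransferases. Its longest common run was 12 bases with DGAT1, on opposite strands, 11 bases with DGAT2, on opposite strands, and 11 bases with PDAT1, on the same strand. The runs are shown with their flanks, the shared bases in capitals, each on the plus strand, which is the coding strand of all 4 genes.
DGAT3 at chr1:17847263-17847304: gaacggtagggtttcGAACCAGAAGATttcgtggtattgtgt
DGAT1 at chr2:8429351-8429389: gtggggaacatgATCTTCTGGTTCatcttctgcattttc
DGAT3 at chr1:17847893-17847933: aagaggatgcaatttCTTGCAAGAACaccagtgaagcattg
DGAT2 at chr3:19111295-19111327: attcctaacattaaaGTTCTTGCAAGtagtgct
DGAT3 at chr1:17848039-17848079: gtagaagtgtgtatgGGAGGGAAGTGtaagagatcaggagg
PDAT1 at chr5:4393646-4393686: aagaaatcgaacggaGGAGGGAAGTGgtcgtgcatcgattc
DGAT1 spans chr2:8426117-8429853 with 16 exons, DGAT2 chr3:19110596-19112760 with 8, and PDAT1 chr5:4392937-4397541 with 6. Stretches of 21 exonic bases found elsewhere made up 1.22% of DGAT1, 0.171% of DGAT2 and 0.790% of PDAT1. For reads that match several loci, the authors' treatment is not stated in the labels or headers.

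DGAT3 was the only one of the 4 genes with more than 5 small RNA reads in any library, and it had them in ein5 dcl4. It held 4 and 5 reads in the ein5 dcl4 dcl2 libraries, 24232 and 15609 in the ein5 dcl4 libraries, and 3 in each Col-0 library. In deposited units these were 6.83 and 9.50 in ein5 dcl4 dcl2, 46406 and 43530 in ein5 dcl4, and 0.555 and 0.770 in Col-0. Both ein5 dcl4 libraries stood far above the others, and no libraries of different genotypes overlapped in units. The means were 8.17 ± 1.89 units in ein5 dcl4 dcl2, 44968 ± 2034 in ein5 dcl4 and 0.663 ± 0.152 in Col-0 (SD, n = 2 each). DGAT3 took 1.87% of all table reads in ein5 dcl4 library a and also 1.87% in library b. Small RNAs of this one oil synthesis gene were thus a like share of both libraries, although their depths differed.

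**Figure D1:**
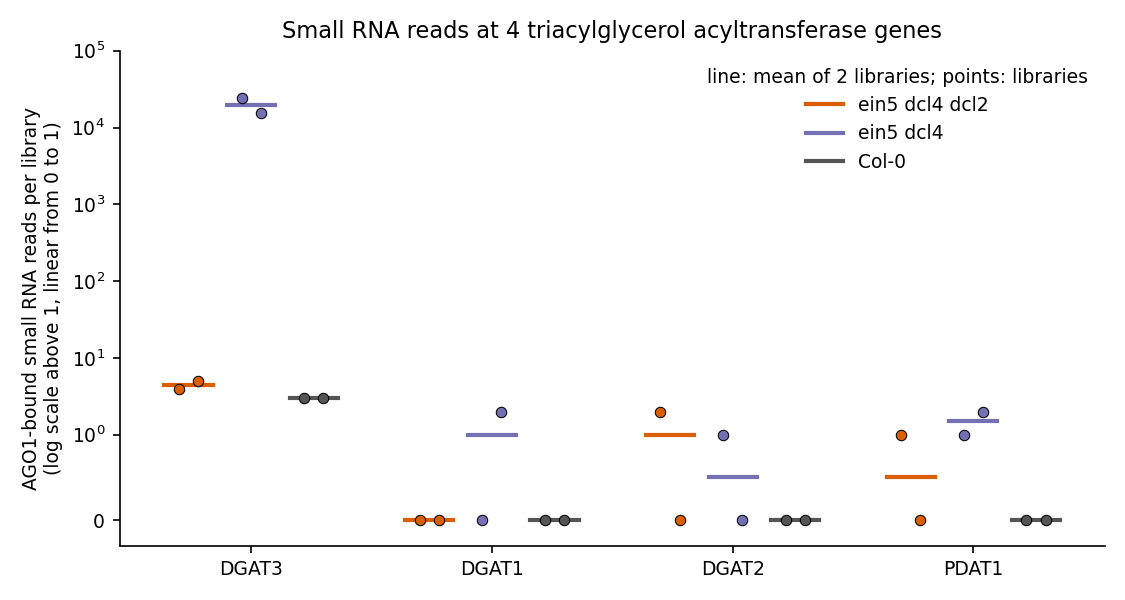
AGO1-bound small RNA reads per library at the 4 triacylglycerol acyltransferase genes, on an axis that is logarithmic above 1 read and linear from 0 to 1, with points for libraries and lines for their mean in each genotype, in the order ein5 dcl4 dcl2, ein5 dcl4 and Col-0. DGAT3 in ein5 dcl4 stands at 24232 and 15609 reads, while every other point lies at 5 or below.

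DGAT1, the main seed enzyme, held no read in the ein5 dcl4 dcl2 libraries, 0 and 2 in the ein5 dcl4 libraries, and none in the Col-0 libraries. Its mean was 2.79 ± 3.94 units in ein5 dcl4 (SD, n = 2), from 1 library. DGAT2, an endoplasmic reticulum enzyme with a minor part in seed oil, held 2 and 0 reads in ein5 dcl4 dcl2, 1 and 0 in ein5 dcl4, and none in Col-0. Its ein5 dcl4 dcl2 and ein5 dcl4 libraries overlapped. PDAT1, the phospholipid-dependent enzyme, held 1 and 0 reads in ein5 dcl4 dcl2, 1 and 2 in ein5 dcl4, and none in Col-0. None of these counts passed the 3 reads that a count of 0 allows, so no difference between genotypes was detectable for DGAT1, DGAT2 or PDAT1 at this depth. The mean level over the 6 libraries was 14992 units for DGAT3, 1.53 for PDAT1, 0.930 for DGAT1 and 0.889 for DGAT2. The limit for testing was 1 unit, which 2 of the 4 genes reached, and PDAT1 reached it through ein5 dcl4.

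The contrast between the genes could be stated with a bound in ein5 dcl4. Per kilobase of exon, and over both libraries together, DGAT3 held 33008 reads, DGAT1 0.877, DGAT2 0.752 and PDAT1 0.843. The upper ends of the exact 95% Poisson intervals were 3.17, 4.19 and 2.46 reads per kilobase for DGAT1, DGAT2 and PDAT1, or at most 0.00960%, 0.0127% and 0.00747% of the DGAT3 level per kilobase. DGAT3 accounted for 99.992% of the reads of the 4 genes in ein5 dcl4 library a and 99.974% in library b. Levels as low as those of DGAT1, DGAT2 and PDAT1 were common in this genotype, where 75.3% of the 26712 protein-coding loci held at most 2 reads over both libraries and 81.0% at most 3. Levels as high as that of DGAT3 were rare, since 26 protein-coding loci held more than 10000 reads.

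The loci on either side of DGAT3 had no small RNA reads in ein5 dcl4. The pseudogene AT1G48290, 2134 bases away, held 1 and 1 reads in ein5 dcl4 dcl2, none in ein5 dcl4, and 12 and 9 in Col-0. On the other side lies CHR18, a gene of the SNF2 chromatin remodelling family transcribed towards DGAT3, whose annotated end is 82 bases away. It held no read in either mutant and 0 and 1 in Col-0. In ein5 dcl4, where DGAT3 held 24232 and 15609 reads, no read was thus assigned to either neighbour, while the bases between the genes were not measured.

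**Figure D2:**
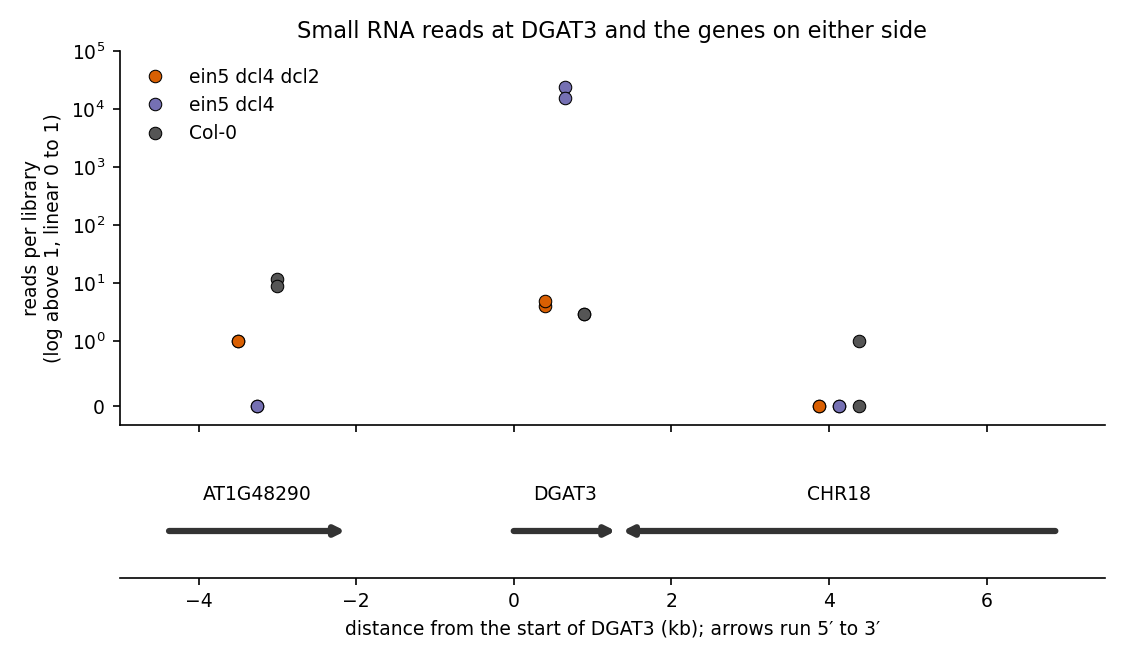
Small RNA reads per library at DGAT3 and the genes on either side, 1 point per library, on an axis that is logarithmic above 1 read, above a map of the genes in kilobases from the start of DGAT3 with arrows running 5′ to 3′. In ein5 dcl4 the points of DGAT3 are at 24232 and 15609, and those of AT1G48290 and CHR18 are at 0.

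Of the loci beside the other genes, GUN5 had the most reads. GUN5, the magnesium chelatase subunit of chlorophyll synthesis, lies 507 bases from PDAT1 and held 4 and 3 reads in ein5 dcl4 dcl2, 35 and 21 in ein5 dcl4, and 6 and 11 in Col-0. SVR3, 36 bases from PDAT1 on its other side and coding for a chloroplast translation factor, held 1 and 0, then 5 and 1, then 5 and 1 reads in ein5 dcl4 dcl2, ein5 dcl4 and Col-0. The loci beside DGAT1 and DGAT2 held at most 2 reads in any library. AT3G51530, whose annotation overlaps that of DGAT2, held no read in ein5 dcl4 dcl2 or ein5 dcl4, and 1 and 2 in Col-0. Without a stated strand, reads of overlapping genes cannot be told apart, but here neither gene had more than 2 in a library.

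By level, DGAT3 stood among the foremost small RNA loci of ein5 dcl4. It ranked 7 among all loci by reads in both libraries. Counted per kilobase of exon among 26712 protein-coding loci, it ranked 4 in library a and 3 in library b. In ein5 dcl4 dcl2 it ranked 453 and 332 by reads among protein-coding loci, and in Col-0 2393 and 1800, on counts of 3 to 5 reads that many loci share. Above it in ein5 dcl4 were NIA2 and NIA1, the nitrate reductases, at 616729 and 530738 units. GTE7 followed at 106906 units, then HSP70 (AT3G12580) at 64161 ± 4780, GTE2 at 64103 and HSC70-1 at 55955 ± 4273 (SD, n = 2 each). GTE7 and GTE2 code for bromodomain proteins, and HSP70 and HSC70-1 for chaperones. Next below DGAT3 was AT5G57130, with libraries at 41952 and 43346 units against 46406 and 43530 for DGAT3. These libraries did not overlap, but the closest were 43346 and 43530, and the order of these neighbours was not tested. HSC70-1, at 58977 and 52934, and HSP90.1, a chaperone at 30509 and 33889, did not overlap DGAT3 either.

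**Figure D3:**
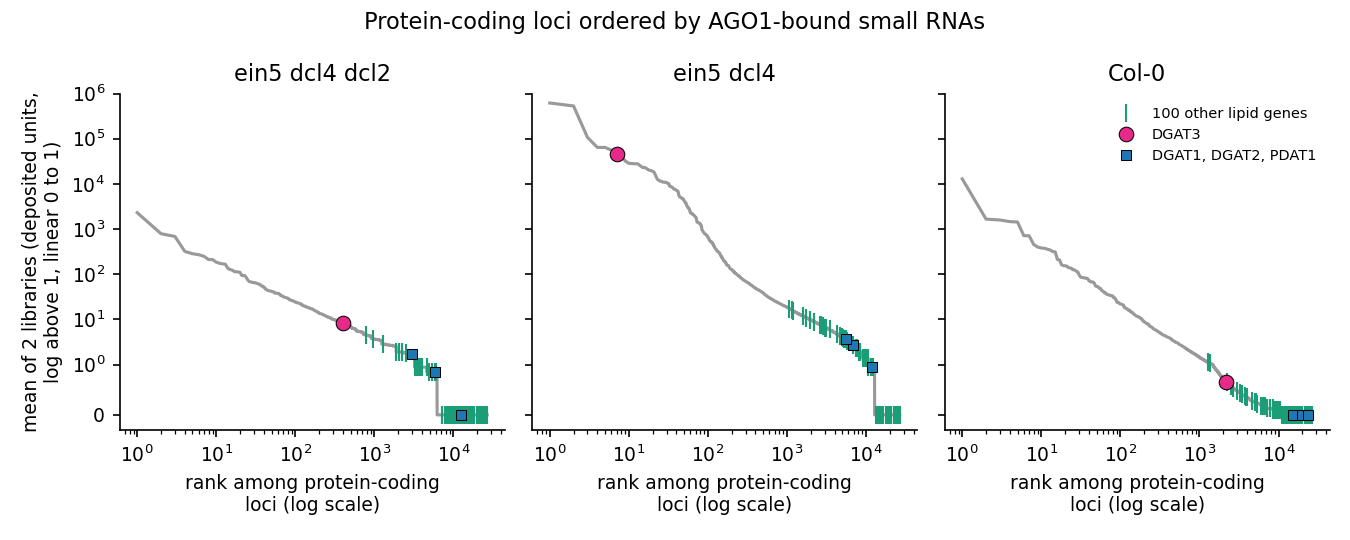
Protein-coding loci ordered by small RNA level in each genotype, in panels for ein5 dcl4 dcl2, ein5 dcl4 and Col-0, with rank on a logarithmic horizontal axis and the mean of 2 libraries in deposited units on the vertical axis. Symbols mark the 4 triacylglycerol acyltransferase genes and ticks 100 other lipid genes, and DGAT3 is at rank 7 in ein5 dcl4.

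The loci with the pattern most like DGAT3 over the 6 libraries were not lipid genes. Likeness was the Euclidean distance on log2(value + 1), and the 5 closest loci were HSP70 (distance 1.21), HSP81-2 (1.30), CYP79B2 (1.42), MTO3 (1.90) and HSP90.1 (1.90). HSP70 held 2 and 7 reads in ein5 dcl4 dcl2, 35268 and 21795 in ein5 dcl4, and 3 and 2 in Col-0. HSP81-2, a cytosolic HSP90, held 4 and 6, then 13468 and 10745, then 6 and 7 in the same order of genotypes. CYP79B2, a cytochrome P450 of tryptophan-derived glucosinolate synthesis, held 5 and 4 reads in ein5 dcl4 dcl2, 12440 and 9451 in ein5 dcl4, and 1 and 1 in Col-0. MTO3, an S-adenosylmethionine synthetase, held 5 and 6, then 13747 and 10478, then 18 and 6. Like DGAT3, each of these had at least 9451 reads in both ein5 dcl4 libraries and at most 18 in any other. Such likeness follows from their choice by distance over these same libraries.

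How large the differences at DGAT3 are depends on the scale put on the libraries, but for comparisons with ein5 dcl4 the direction does not. In deposited units DGAT3 was 70096-fold higher in ein5 dcl4 than in wild-type Col-0, by 39841 against 6 reads, with an exact 95% counting interval of 32202 to 191018. Scaled to equal table totals the ratio was 6781, with a trimmed-mean rescaling 20941, and with equal totals over miRNA loci 109559. In ein5 dcl4 dcl2 the level was 5587-fold lower than in ein5 dcl4, by 9 against 39841 reads, with an interval of 2943 to 12220. The other scalings put it 4046-fold (table totals), 4406-fold (trimmed mean) and 94300-fold (miRNA loci) lower. Over the 4 scalings, DGAT3 in ein5 dcl4 stood 4046- to 94300-fold above its level in ein5 dcl4 dcl2 and 6781- to 109559-fold above that in Col-0.

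Whether DGAT3 remained above wild type in the triple mutant could not be settled from these counts. In deposited units the level in ein5 dcl4 dcl2 was 12.5-fold that in Col-0, with a counting interval of 3.99 to 42.8, by 9 against 6 reads. With a trimmed-mean rescaling the ratio was 4.75 (1.51 to 16.2). With equal table totals it was 1.68 (0.533 to 5.72), and with equal totals over miRNA loci 1.16 (0.369 to 3.97), and both of these intervals include 1. The intervals on the reads themselves were 4.12 to 17.1 for the 9 reads in ein5 dcl4 dcl2 and 2.20 to 13.1 for the 6 reads in Col-0.

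**Figure D4:**
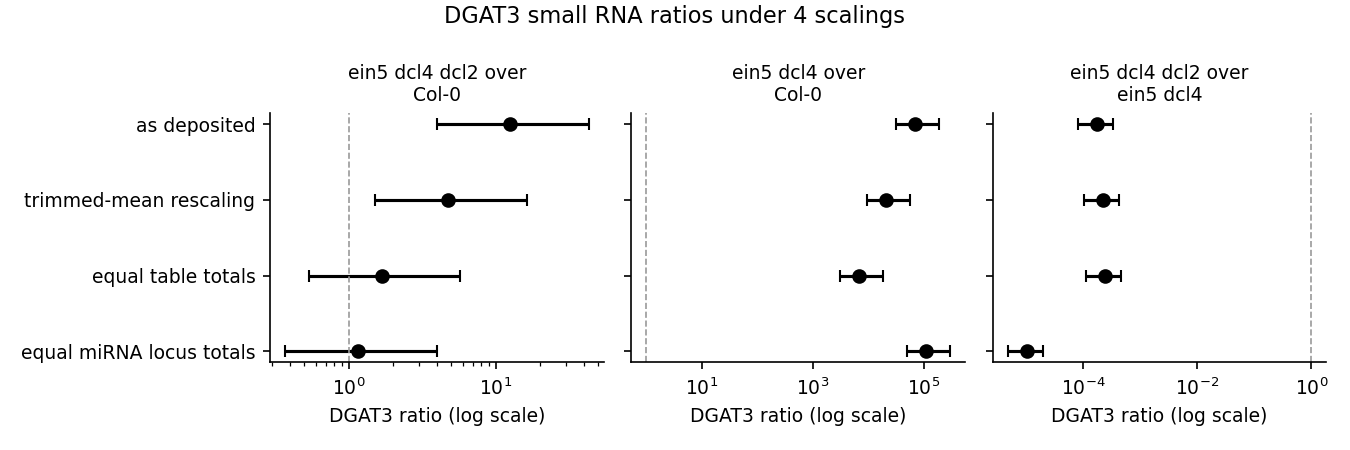
Ratio of DGAT3 small RNA levels between genotypes under 4 scalings of the libraries, on a logarithmic axis, with exact 95% counting intervals and a dashed line at a ratio of 1. The comparisons with ein5 dcl4 lie 4046-fold or further from 1 under each scaling, while ein5 dcl4 dcl2 over Col-0 goes from 12.5 in deposited units to 1.16 with equal miRNA totals.

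The authors' deposited table gave DGAT3 a log2 fold change of 16.09 for ein5 dcl4 over Col-0. For ein5 dcl4 over ein5 dcl4 dcl2, the direction opposite to the one used above, the authors' deposited table gave 12.44. In the authors' deposited table DGAT1 stood at 6.10 and 3.05, DGAT2 at 4.78 and -0.65, and PDAT1 at 6.53 and 2.06 in these comparisons, with no adjusted p given for any of them. The values of DGAT1, DGAT2 and PDAT1 rest on 2, 1 and 3 reads in ein5 dcl4, with 0, 2 and 1 in ein5 dcl4 dcl2 and none in Col-0. A log2 fold change of 4.78 over Col-0 in the authors' deposited table is thus 1 read against 0 at DGAT2, whereas the 16.09 of DGAT3 is 39841 against 6.

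The other genes of oil metabolism were examined as 100 genes in 6 lists, from related acyltransferases to regulators of seed oil, and in ein5 dcl4 none came near DGAT3. In Col-0, where DGAT3 held 3 and 3 reads, ACC1 (8 and 3) and FAD3 (6 and 4) held more. The most reads that any of them had in a library was 12, and 32 had no read in any library. Together the 100 genes held 8 and 22 reads in ein5 dcl4 dcl2, 127 and 86 in ein5 dcl4, and 67 and 40 in Col-0. The summed reads were thus lowest in ein5 dcl4 dcl2 and highest in ein5 dcl4, without overlap between genotypes. This order was not particular to the lipid genes. Of all 26712 protein-coding loci, 6195 held a read in ein5 dcl4 dcl2, 12829 in ein5 dcl4 and 10603 in Col-0. DGAT3 alone had over 100 times the reads of all 100 genes in each ein5 dcl4 library.

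**Figure D5:**
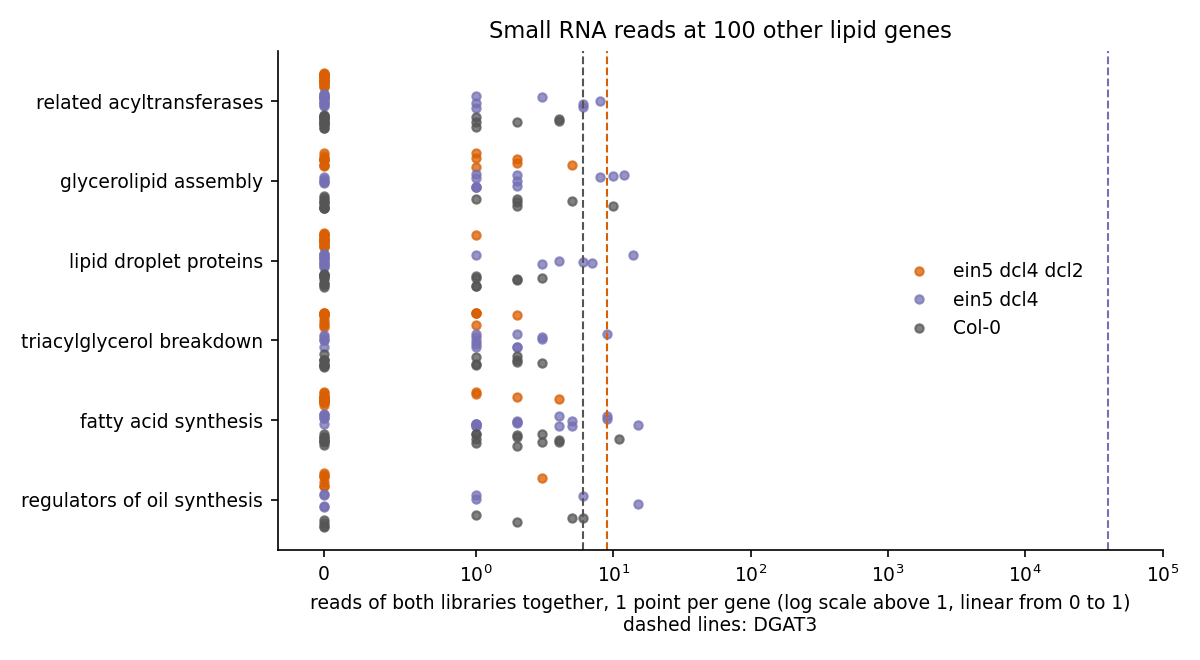
Small RNA reads of both libraries together at 100 other lipid genes in 6 lists, 1 point per gene, in the order ein5 dcl4 dcl2, ein5 dcl4 and Col-0, on an axis that is logarithmic above 1 read. The dashed lines are DGAT3, at 9, 39841 and 6 reads, and no other lipid gene passes 15 in any genotype.

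Of the 100 genes, 26 had a mean of at least 1 unit and were tested with all other loci by limma. For ein5 dcl4 against Col-0, 18 were called higher, none lower and 8 were not called at an adjusted p under 0.05 (20 higher and 0 lower at an unadjusted p under 0.05). Among protein-coding loci tested, 55.4% were called higher and 2.39% lower, and among all loci tested 38.7% and 6.45%. That balance depends on the scaling, since 2840 loci were called higher and 2748 lower of 9925 with the trimmed mean, and 1605 higher and 4738 lower of 9538 with equal table totals, where the median of all loci was -1.63. The median log2 difference was 2.51 over the 26 genes, 2.13 over protein-coding loci and 1.49 over all loci. With a genotype that held no read put at 3 reads per library, the medians were 2.28, 1.90 and 1.40. The calls rest on few reads: 14 of the 18 genes had under 10 reads in both ein5 dcl4 libraries together, and genes that reached the 1 unit limit through that genotype had to differ. Of the lipid genes, 12 of 17 tested were called higher with the trimmed mean, 3 of 14 with equal table totals, 24 of 54 with equal miRNA totals and 26 of 26 with voom weights. Over all loci voom weights called 6826 of 11376 higher and equal miRNA totals 6041 of 16698. With equal table totals the lipid genes called were PES1, LDAP1 and AAPT2, and every other call against Col-0 was lost or its gene not tested. Leaving out either Col-0 library left fewer lipid genes called, and also fewer loci called higher in all. The median log2 difference without Col-0 library a was 2.34 over the lipid genes tested and 1.36 over all loci. Without Col-0 library b these medians were 2.41 and 1.37.

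For ein5 dcl4 dcl2 against ein5 dcl4, none of the 26 was called higher, 16 lower and 10 were not called (0 and 17 at an unadjusted p under 0.05). Among protein-coding loci 50.6% were called lower and 4.53% higher, and among all loci 35.9% and 11.3%. The median log2 difference was -2.22 over the 26 genes, -2.10 over protein-coding loci and -1.33 over all loci, and -0.51, -0.50 and -0.24 with a genotype without reads put at 3 per library. Of the 16 genes, 14 held no read in ein5 dcl4 dcl2. Scalings changed the count to 10 (trimmed mean, 17 tested), 6 (table totals, 14 tested) and 25 (miRNA loci, 54 tested). Over all loci, 2783 were called lower and 1267 higher with the trimmed mean, 1910 and 1115 with table totals, and 7755 and 161 with miRNA loci, against 4087 and 1288 as deposited. Fewer lipid genes, and fewer loci in all, were called lower with any 1 library left out. The medians over lipid genes and all loci were -2.13 and -1.36 with either Col-0 library left out. They were -2.10 and -1.38 without ein5 dcl4 dcl2 library a, and -2.54 and -1.36 without its library b. Without ein5 dcl4 library a these medians were -2.72 and -1.20, and without ein5 dcl4 library b -3.11 and -1.26. For ein5 dcl4 dcl2 against Col-0, limma called none of the 26 in either direction, with 2 higher and 0 lower at an unadjusted p under 0.05, while limma with voom weights called 14 higher, and over all loci 4803 higher and 275 lower of 11376. Without voom the share called was 0.472% higher and 0.345% lower among protein-coding loci, and 1.08% and 0.299% among all loci. With equal table totals, 62 loci were called higher and 3786 lower of 9538, 1 lipid gene among the lower ones, and with the trimmed mean 86 and 536, and with miRNA loci 4 and 1831.

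Among 21 acyltransferases related to the triacylglycerol enzymes, 4 were tested, and all 4 reached the limit of 1 unit through ein5 dcl4 alone. Their calls, higher in ein5 dcl4 against Col-0 and lower in ein5 dcl4 dcl2 than in ein5 dcl4, were therefore fixed by the filter in direction, and the shares called over all protein-coding loci were 55.4% and 50.6%. PES1, a phytyl ester synthase that also makes triacylglycerol in chloroplasts, held no read in ein5 dcl4 dcl2, 5 and 3 in ein5 dcl4, and none in Col-0 (limma adjusted p 0.00323 against Col-0). Its paralog PES2 held none, then 4 and 2, then 4 and 0 in the same order, so its reads overlapped between ein5 dcl4 and Col-0 although its units did not (adjusted p 0.0109). LCAT3, a phospholipase related to PDAT1, held 3 and 3 reads in ein5 dcl4 and none elsewhere. LPCAT1, a lysophosphatidylcholine acyltransferase of acyl editing, held 1 and 2 in ein5 dcl4, 1 and 0 in Col-0 and none in ein5 dcl4 dcl2. The other acyltransferases were below the limit, among them ASAT1 with 0 and 1 reads in the ein5 dcl4 libraries against 3 and 1 in those of Col-0, and AT3G49190 with 1 read in all.

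Of 16 glycerolipid assembly genes, 4 were tested, 2 were called higher in ein5 dcl4 against Col-0, and 1 lower in ein5 dcl4 dcl2 than in ein5 dcl4. The shares so called over all protein-coding loci tested were 55.4% and 50.6%. AAPT2, which makes phosphatidylcholine from diacylglycerol, held 1 and 1 reads in ein5 dcl4 dcl2, 7 and 3 in ein5 dcl4, and 2 and 0 in Col-0. It was called against Col-0 (limma adjusted p 0.00441) and for ein5 dcl4 dcl2 against ein5 dcl4 (0.0134). AAPT2 needed its ein5 dcl4 reads to reach the limit of 1 unit, so the filter fixed the direction of its call against Col-0. The filter also favoured the direction of its other call. FAD2, the oleate desaturase, held 2 and 3, then 5 and 3, then 3 and 2, with an adjusted p of 0.00586 for ein5 dcl4 against Col-0 and 0.117 for ein5 dcl4 dcl2 against ein5 dcl4. Its call against Col-0 depends on the scaling, since limma gave an adjusted p of 0.339 with equal table totals. FAD3, the linoleate desaturase, held 0 and 2 in ein5 dcl4 dcl2, 11 and 1 in ein5 dcl4, and 6 and 4 in Col-0, and was not called. Its ein5 dcl4 libraries spanned both of those in Col-0 in reads. GLI1, the glycerol kinase, held 1 read in each ein5 dcl4 library and was not called.

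Lipid droplet proteins coat or shape the organelle that stores the oil, and of 18, 5 were tested and 4 called in both comparisons. Over all protein-coding loci tested, 55.4% were called higher in ein5 dcl4 against Col-0 and 50.6% lower in ein5 dcl4 dcl2 than in ein5 dcl4. LDAP1, the droplet protein of leaves, had the most reads of the 18 in ein5 dcl4, with no read in ein5 dcl4 dcl2, 8 and 6 in ein5 dcl4, and 0 and 1 in Col-0. Its mean was 16.0 ± 0.998 units in ein5 dcl4 (SD, n = 2). By limma its adjusted p was 0.00216 against Col-0 and 0.00177 for ein5 dcl4 dcl2 against ein5 dcl4. SEIPIN2, which helps droplets bud from the endoplasmic reticulum, held 5 and 2 reads in the ein5 dcl4 libraries against 2 and 0 in those of Col-0. The caleosins CLO3 and CLO4 held 4 and 2 (CLO3) and 3 and 1 (CLO4) in the ein5 dcl4 libraries, against 1 and 2 (CLO3) and 1 and 0 (CLO4) in those of Col-0. None of SEIPIN2, CLO3 and CLO4 had a read in ein5 dcl4 dcl2. These 3 genes and LDAP1 reached the limit of 1 unit through ein5 dcl4 alone, so the filter fixed the direction of their calls. SEIPIN3, with 0 and 3 reads in ein5 dcl4, was not called, and LDAP2 had 1 read in all.

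Of 16 genes of triacylglycerol breakdown, 4 were tested and 2 called in both comparisons, higher in ein5 dcl4 each time. Such calls made up 55.4% (against Col-0) and 50.6% (ein5 dcl4 dcl2 against ein5 dcl4) of all protein-coding loci tested. MFP2, a multifunctional enzyme of peroxisomal beta-oxidation, held 2 and 1 reads in ein5 dcl4 and none elsewhere. ACX1, an acyl-CoA oxidase, held no read in ein5 dcl4 dcl2, 1 and 2 in ein5 dcl4, and 0 and 2 in Col-0, at an adjusted p of 0.0480 against Col-0 by limma. Its reads overlapped between ein5 dcl4 and Col-0. That call was lost without the filter (limma adjusted p 0.0998) and with a pseudocount of 5 (0.0808). It held with voom, equal miRNA totals and a pseudocount of 0.5. PXA1, the peroxisomal importer of fatty acids, held 1 and 8 reads in ein5 dcl4 and was not called, and ACX4, with 1 read in each ein5 dcl4 library, was not either. These calls stand on 3 reads a gene, and both comparisons share the ein5 dcl4 libraries. MFP2 and ACX1 reached the limit of 1 unit through ein5 dcl4 alone, so the filter fixed the direction of their calls.

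Fatty acid synthesis, which supplies the acyl chains, had 7 of 21 genes tested, with 5 called higher in ein5 dcl4 against Col-0 and 4 lower in ein5 dcl4 dcl2 than in ein5 dcl4. Among all protein-coding loci tested, 55.4% and 50.6% were so called. ACC1, the cytosolic acetyl-CoA carboxylase, held 1 and 3 reads in ein5 dcl4 dcl2, 8 and 7 in ein5 dcl4, and 8 and 3 in Col-0. In units its means were 3.70 ± 2.82, 17.4 ± 2.97 and 1.13 ± 0.503 (SD, n = 2 each), a log2 difference of 3.13 ± 0.54 (SE) for ein5 dcl4 against Col-0, where the reads of the genotypes overlapped. LACS4, a long-chain acyl-CoA synthetase, held none, then 6 and 3, then 3 and 0 reads, and FATB, the acyl carrier protein thioesterase for saturated chains, held 0 and 2, then 6 and 3, then 1 and 1. CAC2, the biotin carboxylase subunit of the plastid acetyl-CoA carboxylase, held 2 and 3 reads in ein5 dcl4 and none elsewhere. MCAT, the malonyl transferase, held 3 and 1 in ein5 dcl4 and none elsewhere. LACS4, CAC2 and MCAT reached the limit of 1 unit through ein5 dcl4 alone, so the filter fixed the direction of their calls. FATB, called only against Col-0, also needed its ein5 dcl4 reads to reach the limit, which fixed the direction of that call. The hydroxyacyl dehydratase AT5G10160, with 5 and 0 reads in ein5 dcl4, and SSI2 were not called.

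Of 8 regulators of oil synthesis, 2 were tested. MYB96, a transcription factor of wax and storage lipid genes, had the most reads of the 100 genes in a library. It held none in ein5 dcl4 dcl2, 12 and 3 in ein5 dcl4, and 3 and 3 in Col-0, and was called in both comparisons (limma adjusted p 0.00503 against ein5 dcl4 and 0.00988 against Col-0, for the triple and the double mutant). PKL, a chromatin remodeller that represses embryonic genes, held 0 and 3, then 2 and 4, then 2 and 3 reads and was not called. ABI3, a master regulator of seed maturation, had 1 read in all. MYB96 reached the limit of 1 unit through ein5 dcl4 alone, so the filter fixed the direction of its calls. The shares called in these directions over all protein-coding loci tested were 55.4% against Col-0 and 50.6% against ein5 dcl4.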

How the data were processed

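AGO1-bound small RNAs were sequenced from 6 libraries, and per the labels analysis used Read1 alone. The authors deposited 1 table with 1 value per locus and genotype. Per the file headers the values are TPM, but the columns sum to 1743399 (ein5 dcl4 dcl2), 2404778 (ein5 dcl4) and 235535 (Col-0), so they were used as a signal in deposited units. The authors' own log2 fold changes, with a p-value and an adjusted p-value each, stood in the same deposited table. The submitters' processing notes name TAIR10, DESeq2, Bowtie 1.2.2 and SAMtools 1.9. The sources used here do not give read lengths, strand, filters or the handling of multiple matches.

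Every deposited value was the mean of 2 libraries, and 100% of values above 0 could be written as whole reads of both, within a relative tolerance of 1e-14. All loci were compared with limma 3.58.1 (R 4.3.3) on log2(value + 1), with all 6 libraries in 1 fit, a trended prior, 3 residual degrees of freedom where the mean over libraries reached 1 unit. Loci were called at 0.05 on two-sided p-values adjusted by Benjamini-Hochberg over all loci. The p-values set each difference against the spread between these libraries, moderated over all loci. A genotype without a read shows no spread, although a count of 0 allows up to 3 reads. Levels at DGAT3 of 1 to 9 reads carry exact Poisson or binomial intervals. The steps were tested on simulated data. Sequences came from RefSeq TAIR10.1, joined by locus name. The members and gene lists were chosen with earlier results of these data known. Named genes were the 4 members, the loci on each side of them, the 5 loci nearest DGAT3, and per list and comparison up to 4 called genes with the largest log2 difference plus up to 2 with the highest mean. AT3G51530, the loci sharing 21 bases with DGAT3 and those around it in the order of levels were named after their values were seen.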

Additional observations from a re-analysis of the deposited data

How the results depend on the processing

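No paired analysis was possible because the deposited columns carry no replicate numbers and library a or b cannot be tied to one, so no replicate block was fitted. The count of other lipid genes called higher in ein5 dcl4 against Col-0, 18 of 26 tested, was 12 of 17 with a trimmed-mean rescaling, 3 of 14 with equal table totals, 24 of 54 with equal miRNA totals, 26 of 26 with voom and 2 to 19 with 1 library left out, where the lone library of a genotype is assumed to vary like the others. The 16 called lower in ein5 dcl4 dcl2 than in ein5 dcl4 became 10 with a trimmed-mean rescaling, 6 with equal table totals, 25 with equal miRNA totals and 10 to 15 with 1 library left out. For ein5 dcl4 dcl2 against Col-0, voom called 14 higher and equal table totals 1 lower, against 0 each. A filter at a mean of 10 units left 0 lipid genes to test. The rescalings change both what a read is worth and which genes pass the filter. The DGAT3 log2 difference on the log2(value + 1) scale was 14.73 for ein5 dcl4 minus Col-0, and 13.54 with the trimmed mean, 12.27 with table totals, 15.85 with miRNA totals, 15.24 and 12.95 with pseudocounts of 0.5 and 5, and 14.63 to 14.82 with 1 library left out. For ein5 dcl4 dcl2 minus ein5 dcl4 it was -12.27, and -11.89, -11.69, -15.72, -11.74 with a pseudocount of 5, and -12.49 to -12.06. For ein5 dcl4 dcl2 minus Col-0 it was 2.45, and 1.65, 0.58, 0.13, 2.89, 1.21 and 2.24 to 2.66. No direction of a DGAT3 difference reversed under these settings. With 3 reads or fewer, DGAT1, DGAT2 and PDAT1 are limited by depth in every genotype.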

Other observations

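DGAT3 has 2 exons. Among the 50 protein-coding loci with the highest small RNA level in ein5 dcl4, 22 (44.0%) had at most 2 exons, against 34.4% of all 26712 protein-coding loci. Among the top 20 the share was 35.0%. The median exonic length was 2564 bases in the top 50, against 1580 bases over all protein-coding loci and 1207 for DGAT3. These shares were not tested.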
